A study of Mus musculus with 8 samples.

Results

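The 5 genes described here belong to the ubiquitin and p97 system and were followed through arsenite stress and recovery in mouse NIH3T3 cells. They are the polyubiquitin gene Ubb, the arsenite-inducible gene Zfand2a, Vcp, which encodes the ATPase p97, and the p97 cofactor genes Ufd1l, listed under its current symbol Ufd1, and Nploc4. The genes were chosen by name and had to be present in each of the 3 gene tables, which all 5 were, out of 9875 genes in all 3 tables and 10690 genes in at least 1. The NIH3T3 line, an established one, derives from mouse embryo fibroblasts. Cells in medium with calf serum were left untreated (NT), kept in 250 µM sodium arsenite for 1 h (AS), or washed after that treatment and cultured on without arsenite, for 4 h in RC4 and for 8 h in RC8. Total RNA was sequenced by QuantSeq FWD, whose reads start upstream of the polyadenylation site (PAS) and run toward the 3′ end of the transcript.

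Ubiquitin is a small protein that is joined to other proteins, often in chains that mark them for the proteasome. Polyubiquitin genes encode head-to-tail ubiquitin units that are cut apart after translation, whereas Rps27a encodes ubiquitin fused to a ribosomal protein. p97 is a hexameric ATPase that pulls ubiquitylated proteins out of membranes and complexes, and the heterodimer of Ufd1 and Npl4, the product of Nploc4, brings it to ubiquitin chains. Zfand2a encodes a protein with AN1-type zinc fingers, known as AIRAP, that associates with the proteasome in cells exposed to arsenite. Arsenite binds protein thiols and causes protein damage and oxidative stress.

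There was 1 library per condition, so no difference could be set against a spread between cultures and no test was made. Intervals are 95% intervals of read counting only. The libraries held between 22.4 M and 23.0 M reads on genes, and levels are given as rpm, reads per 1000000 of these. All 3 comparisons share the NT library, whose rpm differ slightly between tables because each table holds its own set of genes. All 7 fibroblast markers checked, such as Col1a1 and Vim, were listed in NT, and 7 markers of epithelium, leukocytes and endothelium were not listed in any table, where the lowest read number of a gene was 50. Over all genes the median log2 change was −0.04 (AS), −0.30 (RC4) and 0.01 (RC8), and genes at least 2-fold higher took 10.2% of the reads in RC4 against 2.93% of those in NT. Changes of the 5 genes in RC4 are therefore also given relative to the median gene, as are those of other genes or lists where this moves them across the 2-fold limit or across 0. From bulk RNA, more RNA per cell and more cells with the RNA cannot be told apart.

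Ubb and Zfand2a each had 1 PAS in all tables, and both lay in the 3′ UTR and had an AATAAA signal close upstream. Over all 21565 PASs, 51.9% had AATAAA or ATTAAA within 40 nt upstream. The last 30 nt before cleavage are shown for these sites and for the PASs between which the reads of Vcp, Ufd1 and Nploc4 were divided, with the signal in capitals (mm9, transcript strand).
Ubb, chr11:62366681-62366710, plus strand: aatgttAATAAAggttttgttgcatggtaa
Zfand2a, chr5:139947170-139947199, minus strand: atggttAATAAAaattatttatttcaccca
Vcp proximal, chr4:42993190-42993219, minus strand: cgataaAATAAAagtgattttcatttggga
Vcp distal in the AS and RC4 tables, chr4:42992830-42992859, minus strand: acAATAAAtgttgggtcaaaatggagcctg
Vcp distal in the RC8 table, chr4:42992890-42992919, minus strand: aatcataagcagtttctaaaccaaaaaaaa
Ufd1 internal exon, chr16:18827164-18827193, plus strand: cagtccctccccaatcaagcctggagacat
Ufd1 proximal in the 3′-most exon, chr16:18834497-18834526, plus strand: tatggtttgtttaaagttacctgagaacta
Ufd1 distal, chr16:18835283-18835312, plus strand: agctatttaaaatttgttccctgagaataa
Nploc4 proximal, chr11:120242163-120242192, minus strand: gttaattacgttctcatgttctggcatcca
Nploc4 distal, chr11:120241684-120241713, minus strand: gtggaacctAATAAAagcacctgaagcgat

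Ubb was higher than NT in AS and RC4 and lower than NT in RC8. The gene lies on the plus strand at chr11:62364673-62366715. It had 16304 reads (722 rpm) in NT, 20657 (920 rpm) in AS, 31855 (1391 rpm) in RC4, then 7852 (341 rpm) in RC8. RC4 was thus the highest library and RC8 the lowest, and the counting intervals of the 4 levels did not overlap. The log2 change over NT was 0.35 (0.32 to 0.38) in AS, 0.94 (0.92 to 0.97) in RC4 and −1.08 (−1.12 to −1.04) in RC8. In RC4 this was 1.92-fold higher, or a log2 change of 1.25 relative to the median gene, which is past 2-fold. In RC8 Ubb was 2.11-fold lower than NT, rank 294 from the lowest of 10441 genes. From RC4 to RC8 it was 4.07-fold lower, rank 17 from the lowest of 9972 genes.

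Read assignment is uncertain for Ubb, since the coding sequence of its transcript Ubb-001 holds 4 repeats of 228 nt that encode the same 76 residues and share 95.6% to 99.1% of their bases. The last 300 nt before its PAS also matched the pseudogene Gm1821 on chromosome 14 at 99.7% identity. In all, 21 other places matched at 90% or more, among them repeats of Gm1821 and of Ubb itself. Reads that map to as many as 20 places were kept by the authors. Gm1821 had 1090 reads in NT, 1184 in AS, 1912 in RC4, then 461 in RC8. Its order of libraries was that of Ubb, with log2 changes of 0.13, 0.79 and −1.27. With the reads of both summed, the log2 changes were 0.34, 0.93 and −1.09, close to those of Ubb alone. Gm1821 had few reads beside Ubb, so the sum could hardly differ and does not settle the read assignment.

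Rps27a, which encodes ubiquitin fused to a ribosomal protein, differed less from NT than Ubb did in all 3 comparisons. Its log2 changes were 0.17, 0.13 and −0.24, against 0.35, 0.94 and −1.08 for Ubb.

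**Figure D1:**
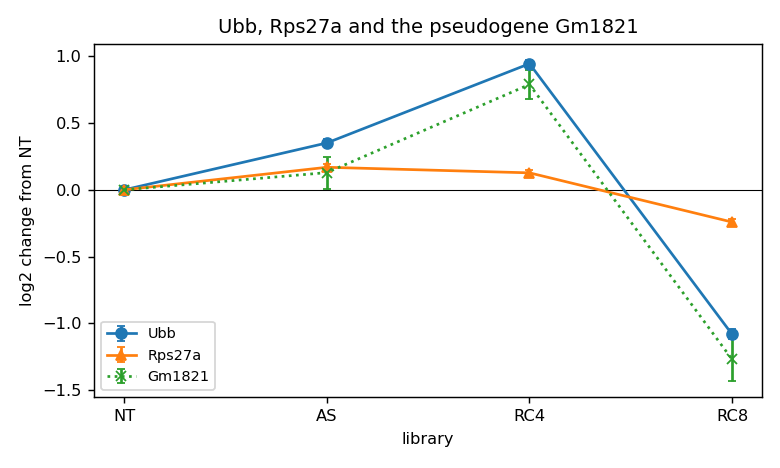
Log2 change in rpm from NT (y axis) in the NT, AS, RC4 and RC8 libraries (x axis) for Ubb, Rps27a and the pseudogene Gm1821. Bars are 95% counting intervals, and lines join 1 library per condition. Ubb and Gm1821 are highest in RC4, then below NT in RC8 (−1.08 and −1.27), while Rps27a stays between −0.24 and 0.17.

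Zfand2a showed the largest difference among the 5 genes. The gene lies on the minus strand at chr5:139947165-139960503, and no other place in the genome matched the last 300 nt before its PAS. It had 729 reads (32.3 rpm) in NT, 1393 (62.1 rpm) in AS, 6487 (283 rpm) in RC4 and 2087 (90.8 rpm) in RC8. All 3 treated libraries lay above NT with no overlap of the counting intervals, in the order AS, RC8, RC4. It was 1.92-fold higher in AS (log2 0.94, 0.81 to 1.07), 8.76-fold higher in RC4 (log2 3.13, 3.02 to 3.24) and 2.81-fold higher in RC8 (log2 1.49, 1.37 to 1.62). These are rank 77 of 10452, rank 10 of 10081 and rank 63 of 10441 genes. Relative to the median gene the log2 change in RC4 was 3.43. From AS to RC4 it was 4.56-fold higher, and from RC4 to RC8 3.12-fold lower.

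**Figure D2:**
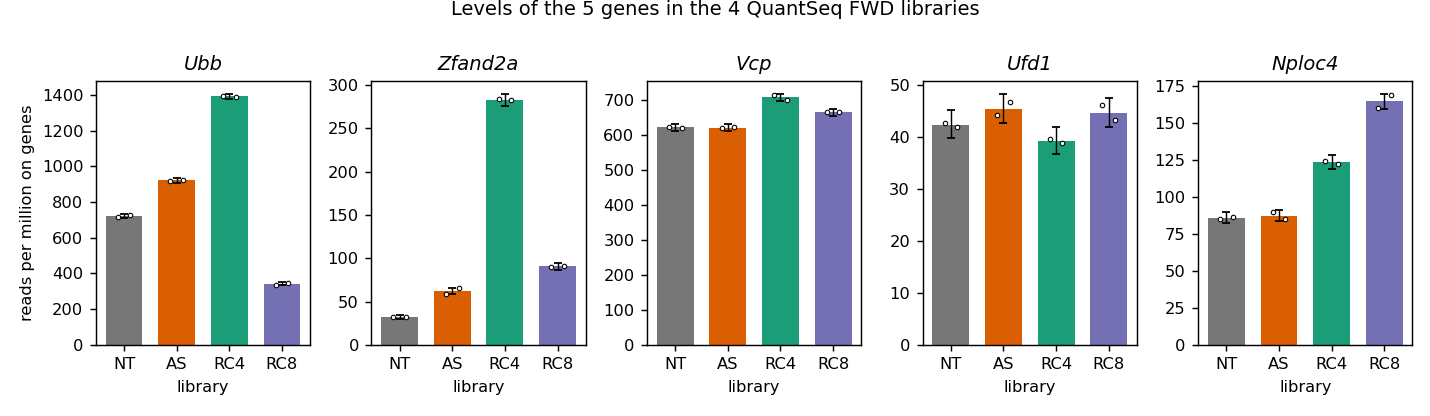
Levels of Ubb, Zfand2a, Vcp, Ufd1 and Nploc4 in rpm (y axes, each from 0) in the NT, AS, RC4 and RC8 libraries (x axes). Bars are the library's level with its 95% counting interval, NT is taken from the AS table, and open circles are the 2 read columns deposited for the library. Ubb and Zfand2a are highest in RC4 (1391 and 283 rpm), and Nploc4 is highest in RC8 (165 rpm).

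Vcp, the gene of p97 itself, was at most 1.13-fold above NT in these libraries. The gene lies on the minus strand at chr4:42992835-43013379. It had 14061 reads (623 rpm) in NT, 13945 (621 rpm) in AS, 16210 (708 rpm) in RC4, then 15299 (665 rpm) in RC8. NT and AS could not be told apart by counting, and RC4 and RC8 lay slightly above them. The log2 changes were −0.00 (−0.04 to 0.03), 0.18 (0.15 to 0.21) and 0.10 (0.06 to 0.13), and 0.49 in RC4 relative to the median gene. The last 300 nt before its PASs matched 1 place on the X chromosome at 98.6% to 99.3% identity, so its reads are uncertain too. The related sequence there, Vcp-rs, had 2991 reads in NT, 2833 in AS, 3125 in RC4, then 3188 in RC8. With both summed, the log2 changes were −0.01, 0.16 and 0.09.

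Nploc4 and Ufd1 encode the subunits of 1 heterodimer, and their levels followed different courses. Nploc4, on the minus strand at chr11:120241684-120299022, had 1941 reads (85.9 rpm) in NT, 1965 (87.6 rpm) in AS, 2831 (124 rpm) in RC4, then 3790 (165 rpm) in RC8. NT and AS overlapped in their counting intervals, RC4 was above both, and RC8 was the highest. The log2 changes were 0.03 (−0.06 to 0.12), 0.52 (0.44 to 0.61) and 0.94 (0.86 to 1.02). In RC8 Nploc4 was 1.92-fold higher than NT, rank 385 of 10441 genes, just below the 2-fold limit, which lies inside its counting interval. Directly from RC4 to RC8 it was higher by a log2 of 0.41 (0.34 to 0.49), rank 4067 from the highest of 9972 genes. Relative to the median gene, Nploc4 was at 0.83 in RC4 and 0.93 in RC8, so the 2 libraries lay closer together. Ufd1, on the plus strand at chr16:18811872-18835354, had 958 reads (42.4 rpm) in NT, 1022 (45.5 rpm) in AS, 901 (39.4 rpm) in RC4 and 1028 (44.7 rpm) in RC8. Its log2 changes of 0.10 (−0.03 to 0.23), −0.11 (−0.24 to 0.02) and 0.08 (−0.05 to 0.21) had intervals that held 0. From RC4 to RC8 it was higher by a log2 of 0.18 (0.05 to 0.31), rank 5472 from the highest of 9972 genes. Relative to the median gene the value in RC4 turned to 0.19, and that in RC8 was 0.07. By that scaling Ufd1 was not higher in RC8 than in RC4.

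**Figure D3:**
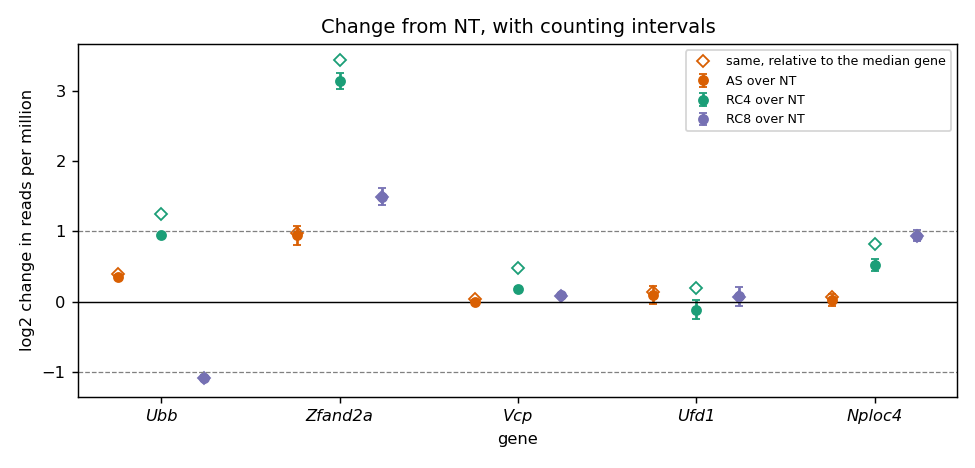
Log2 change in rpm from NT (y axis) for each gene (x axis) in AS, RC4 and RC8. Filled circles carry 95% counting intervals, open diamonds give the same change relative to the median gene, and dashed lines mark 2-fold. Zfand2a lies above the upper line in RC4 and RC8, and Ubb lies below the lower line in RC8 (−1.08) and passes the upper line in RC4 relative to the median gene (1.25).

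At a limit of 2-fold, none of the 5 genes was past it in AS, where 0.622% of all genes were higher and 3.22% lower. The limit lay inside the counting interval of Zfand2a in AS, and of its 2 read columns 1 gave a log2 change past it (0.86 and 1.03). In RC4 Zfand2a was higher, with 3.69% of all genes higher and 13.4% lower. In RC8 Zfand2a was higher and Ubb lower, with 2.97% of all genes higher and 3.53% lower. When scaled to the median gene, RC4 had 643 genes higher and 643 lower in place of 372 and 1347, and Ubb joined Zfand2a among the former. Directly from AS to RC4, Zfand2a was higher, beside 5.89% of all genes, while 10.6% were lower. From RC4 to RC8, Ubb and Zfand2a were lower, beside 2.13% of all genes, while 13.2% were higher.

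The other genes of the pathway were taken from 6 lists. With the 5 members left out, 93 of their genes were measured in AS and in RC8 and 90 in RC4. None was at least 2-fold higher in AS, where 2 were lower, beside 0.622% and 3.22% of all genes. In RC4, 3 were higher and 3 lower, beside 3.69% and 13.4% of all genes. Relative to the median gene, 8 were higher and 1 lower in RC4, beside 643 and 643 of all 10081 genes. In RC8, 1 was higher and none lower, beside 2.97% and 3.53% of all genes. The median log2 change of these pathway genes was 0.05 in RC4 and 0.21 in RC8, against −0.30 and 0.01 over all genes. In the AN1 zinc finger family, only Zfand2a passed the limit, and the other 5 measured genes lay between −0.40 and 0.62 in the tables that listed them. The list of p97 adaptors and partners had 24 genes measured in AS and in RC8 and 22 in RC4, Ufd1 and Nploc4 included. Of these, Sprtn, which encodes a protease for DNA-protein crosslinks, was lower in AS at −1.74 (198 reads in NT, 59 in AS). Ubxn7, which encodes a UBX-domain adaptor, was lower in RC4 at −1.02 (540 reads in NT, 271 in RC4), but at −0.71 and inside the limit relative to the median gene. By that scaling, 3 genes of the list were at least 2-fold higher in RC4 and 0 lower. The higher ones were Ubxn2a at 1.28, Ubxn4 at 1.08 and Rhbdd1 at 1.07, in place of 0.98, 0.78 and 0.77. The median log2 changes of the list, with Ufd1 and Nploc4, were −0.03, −0.07 and 0.19, and that in RC4 turned to 0.23 relative to the median gene.

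Among genes for ubiquitin activation, shuttles and recycling, the autophagy receptor gene Sqstm1 had 159 rpm in NT, 189 in AS, 1199 in RC4, then 581 in RC8. Its log2 changes were 0.25, 2.91 and 1.87. The ubiquilin genes lay on opposite sides of NT in RC4, with Ubqln1 at 1.19 and Ubqln4 at −1.49, and the deubiquitinase gene Usp13 was at 1.12 from 109 reads in NT to 240. Among genes of ER-associated degradation, a p97-dependent pathway, Edem3, whose product trims mannose from misfolded glycoproteins, was lower at −1.22 in AS and −1.14 in RC4, the latter being −0.84 and inside the limit relative to the median gene. Its level was 50.4 rpm in NT, 21.6 in AS, 22.8 in RC4, then 40.9 in RC8. Ube2j1, of the same list, was at 0.75 in RC4, or 1.05 and past 2-fold relative to the median gene. The medians of that list were −0.08, −0.44 and −0.06.

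All 32 proteasome subunit genes were measured and none reached 2-fold in any comparison as scaled to the reads on genes. Relative to the median gene, 1 did in RC4, Psmd13, a subunit of the regulatory particle, at 1.15 in place of 0.84. Their medians were 0.06, 0.21 and 0.36, and 27, 32 and 29 of them lay above the median of all genes in AS, RC4 and RC8. Psmb3, a subunit of the core particle, was the highest of them in RC8 at 0.95. The 16 measured chaperone genes that respond to heat shock factor, listed for comparison, had medians of 0.11, 1.64 and 0.46, with 2, 13 and 3 genes at least 2-fold higher, and 15 in RC4 relative to the median gene. Hspa1b, an inducible HSP70 gene, had 42.3 rpm in NT, 217.9 in AS, 2369 in RC4, but 90.4 in RC8. Dnajb1, an HSP40 gene, was at 1.72, 3.34 and 0.52. In RC4 Zfand2a, at 3.13, lay above the median of this list, and the other 4 members lay below it.

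**Figure D4:**
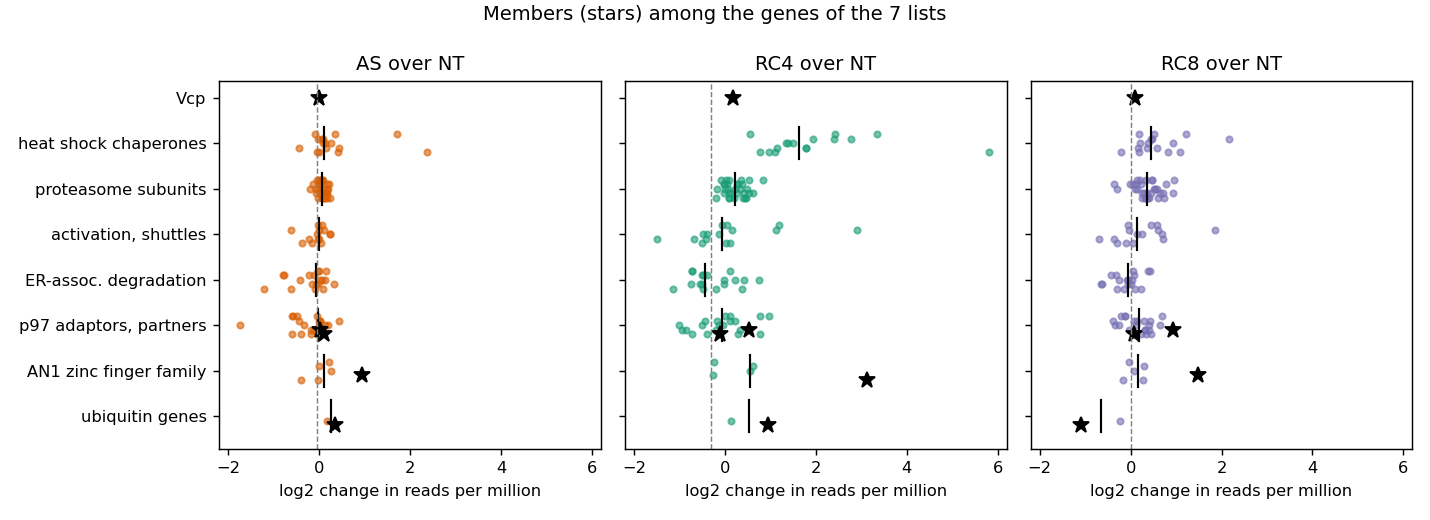
Log2 change in rpm from NT (x axes) in AS, RC4 and RC8 for every measured gene of the 7 lists and for Vcp (y axis). Stars are Ubb, Zfand2a, Ufd1, Nploc4 and Vcp, circles the other genes, short vertical lines the median of a list and the dashed line the median of all genes. Chaperone genes spread to the right in RC4 (median 1.64), and proteasome genes stay close together (medians 0.06, 0.21 and 0.36).

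Of the 5 genes, 3 divided their reads among PASs. No PAS of Vcp, Ufd1 or Nploc4 changed its share by 10 percentage points, a size reached by 15.2% of genes with more than 1 PAS in AS, 29% in RC4, 26.9% in RC8. The largest change was that of Vcp in RC8, where the share of the proximal PAS was 40.9% in NT and 50.6% in RC8 (9.7 points), and log2 of the distal to proximal ratio changed by −0.57 (−0.63 to −0.50). The distal PAS listed there is not the one of the other tables. In the RC8 table it lay at 42992890, in a stretch with 14 A among the next 20 nt and no AATAAA or ATTAAA within 40 nt, and in the AS and RC4 tables at 42992830, which is 5 nt past the annotated end of the gene and has AATAAA. The proximal share of the same NT library was 44.6% and 44.5% in those tables. Set against them, the proximal PAS was 6 or 6.1 points higher in RC8. In AS it was 2.7 points higher than in NT, and in RC4 the shares were equal to the digits deposited.

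Nploc4 used a proximal PAS more than a distal one 479 nt downstream. The distal share was 32.9% in NT, 36% in AS, 33.2% in RC4, but 28.4% in RC8, so that RC8 was lowest. The log2 change of the distal to proximal ratio was 0.20 (0.01 to 0.39), 0.02 (−0.16 to 0.20) and −0.31 (−0.48 to −0.14). Both PASs were nevertheless higher in RC8 than in NT, the distal at 28.3 rpm in NT and 46.8 in RC8, the proximal at 57.7 and 118. The higher level of Nploc4 in RC8 was therefore seen at both of its 3′ ends.

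Ufd1 had a PAS in an internal exon, which takes in coding sequence in some annotated transcripts, and a pair of PASs in the 3′-most exon. The share of the internal PAS was 23.4% in NT, 22.3% in AS, 31.8% in RC4, but 19.5% in RC8, so that RC4 was highest and its interval (28.8% to 34.9%) did not overlap that of NT (20.8% to 26.2%). That of the most distal PAS was 65.9%, 70.4%, 59.1% and 71%. The log2 change of the distal to internal ratio was 0.16 (−0.14 to 0.47), −0.60 (−0.90 to −0.30) and 0.37 (0.06 to 0.69). Within the 3′-most exon alone, the share of the distal PAS was 0.57 points higher in RC4, where its change over all PASs was −6.8 points. In rpm the internal PAS went from 9.95 in NT to 12.5 in RC4 and the distal PAS from 28.0 to 23.3, with the whole gene near its NT level. The median gene was at a log2 change of −0.30 in RC4, a shift that these rpm do not take out. The last 300 nt before the most distal PAS resembled 83 other places, the best at 87.1% identity. None of the 3 sites had AATAAA or ATTAAA within 40 nt upstream. Such a signal was found for 53% of PASs of 3′-most exons and 11.2% of those of internal exons.

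**Figure D5:**
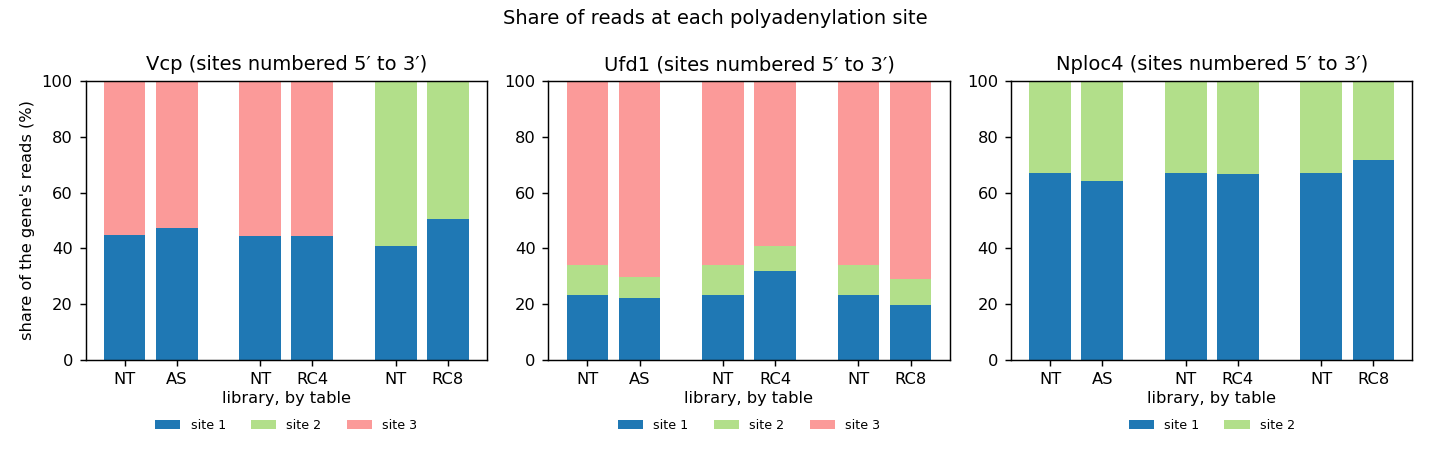
Share of a gene's reads at each PAS in percent (y axis) for Vcp, Ufd1 and Nploc4, with the NT library and the treated library of each table side by side (x axes). Colours are the PASs in 5′ to 3′ order. The distal PAS of Vcp in the RC8 table is another than in the AS and RC4 tables, and the internal PAS of Ufd1 takes 31.8% in RC4 against 23.4% in NT.

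Promoter windows of 250 bases before to 50 after the start were taken from RefSeq (GRCm38.p6, another build than the PASs above) and matched for all 5 genes. They were searched on both strands for the heat shock element letters GAANNTTC and TTCNNGAA and the antioxidant element letters TGACNNNGC, which 7.86%, 8.52% and 12.4% of 32851 promoters hold. Both heat shock forms read the same on either strand and may overlap each other. Zfand2a and Ubb are shown as the genes with the largest changes, with matches in capitals.
Zfand2a, chr5:139484442-139484741, minus strand: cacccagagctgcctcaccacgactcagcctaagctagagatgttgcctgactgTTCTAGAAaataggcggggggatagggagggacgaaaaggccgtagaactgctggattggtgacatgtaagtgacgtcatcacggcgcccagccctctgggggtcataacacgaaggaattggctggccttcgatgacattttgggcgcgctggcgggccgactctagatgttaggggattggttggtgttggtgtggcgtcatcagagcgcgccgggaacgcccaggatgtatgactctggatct
Ubb, chr11:62551481-62551780, plus strand: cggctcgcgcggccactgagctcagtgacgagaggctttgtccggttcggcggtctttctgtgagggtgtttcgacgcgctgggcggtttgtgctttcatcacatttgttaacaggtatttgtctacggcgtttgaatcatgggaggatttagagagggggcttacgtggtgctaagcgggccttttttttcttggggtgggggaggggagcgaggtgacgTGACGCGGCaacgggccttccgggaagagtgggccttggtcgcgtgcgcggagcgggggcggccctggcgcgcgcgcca
The Zfand2a window held TTCTAGAA at −196. RefSeq lists another Ubb start upstream of the one whose window is shown, and positions in the shown window count from the downstream start. The Ubb window shown held no heat shock form and TGACGCGGC at −29. The window of the upstream start, chr11:62550921-62551220, held none of the letters. Nploc4 held GAACTTTC at −176 and TTCAGGAA at −171, which overlap. Vcp held GAATTTTC at −60 and TGACGTGGC at −114, and Ufd1 held none. A match is a description of letters and not of binding.

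The genes with the most similar pattern were found by the distance between the 3 log2 changes over NT, among 7813 genes with at least 200 reads in every library. All 3 changes share the NT library. Among the nearest to Ubb were Gm1821 (distance 0.33) and Nupr1 (0.36), which encodes a small stress-responsive nuclear protein and was at 0.06, 0.99 and −0.87. For Zfand2a they were the metallothionein genes Mt2 (0.60) and Mt1 (0.67), whose products bind metals, and Nabp1 (0.81), which encodes a single-stranded DNA-binding protein. Mt2 was at 1.25, 3.45 and 1.90. For Nploc4 they were the proteasome gene Psmb3 (0.02), Arhgdib (0.05) and Hmga2 (0.08), with Psmb3 at 0.04, 0.53 and 0.95. For Vcp they were Mcfd2, Aldh7a1 and Coprs, and for Ufd1 H2afj, Ndufb6 and Cox7a2, all within 0.04. The nearest genes to Ubb and Zfand2a were thus farther from them than those of the other 3 members. Both are also the members with the largest changes, so the distances are not a separate measure of how unusual their patterns are.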

How the data were processed

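Reads of 4 QuantSeq FWD libraries, 1 per condition, had been trimmed by the authors with bbmap, mapped to mm9 with STAR (version 2.5.2a per the submitters' processing notes; up to 20 loci per read) and assigned with MAAPER to PASs of PolyA_DB v3. The authors deposited whole read counts per gene in 2 columns per library, without normalization, for genes with at least 50 reads. For each PAS the authors deposited the fraction of the gene's reads assigned to it, within a library. The tables also hold the P values and RED and RLD scores of the authors' comparisons, which were not used. All columns of per-sample values were used (0 were left out). The 4 QuantSeq REV libraries were not analysed here.

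The columns were assigned to libraries through the methods and the table names. Both columns were added and divided by the sum over the genes of the table (22.4 M to 23.0 M reads). Intervals are 95% exact Poisson (levels), Clopper-Pearson (ratios of counts) and Wilson (shares of reads at a PAS, with reads of a PAS taken as the fraction times the gene's reads). They cover counting error only, and reads are not independent molecules. RED here is log2 of the distal to proximal ratio, treated over NT. A gene counted as higher or lower at 2-fold. The scoring was tested on simulated data. PAS windows and gene ends came from mm9 and GENCODE vM1, and windows of 300 nt were searched with blastn 2.17.0 for matches of at least 100 nt. Promoters were those of RefSeq. edgeR 4.0.16 gave TMM factors only. Python 3.11.15, scipy 1.17.1 and R 4.3.3 were used.

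Genes named are the 5 members, genes among the 3 nearest to each (smallest Euclidean distance between the 3 log2 changes), and genes of the fixed pathway lists past 2-fold. Of the chaperone list only Hspa1b and Dnajb1 are named, and some genes are not reported here. Psmb3, Psmd13, Rps27a, Ubxn2a, Ubxn4, Rhbdd1 and Ube2j1 were described in addition, and single values were picked after they had been seen. The members and lists were chosen with earlier results of these data known. Alternatives were other scalings, filters, folds, NT columns and denominators of the PAS share.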

Additional observations from a re-analysis of the deposited data

Results flagged for a closer look

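Ubb lay on opposite sides of NT in the recovery libraries, with a log2 change over NT of 0.94 in RC4 and −1.08 in RC8, a difference of −2.02. The comparisons share the NT library and have 1 library per condition, and the difference was not tested.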

How the results depend on the processing

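No paired analysis was possible because each condition has 1 library, and for the same reason no replicate could be left out. No member's value past 2-fold changed its direction. Zfand2a in AS was 0.86 and 1.03 by read column, and thus past 2-fold in 1 of them. Scaling to the median gene or by TMM factors gave log2 changes in RC4 of 1.25 and 1.23 for Ubb, 3.43 and 3.42 for Zfand2a, 0.49 and 0.47 for Vcp, 0.19 and 0.18 for Ufd1, and 0.83 and 0.81 for Nploc4, so that Ubb passed 2-fold and Ufd1 turned its sign. In AS they gave 0.39 and 0.40 for Ubb and 0.038 and 0.043 for Vcp, from just below 0. With these scalings RC4 had 643 and 628 genes higher and 643 and 667 lower, and the pathway lists 8 higher and 1 lower by both. With only genes of all 3 tables, 42 were higher in AS. With at least 200 reads in both libraries, 26 were higher and 206 lower in AS, 832 lower in RC4, 170 higher and 230 lower in RC8, and 1 pathway gene was lower in AS. At 1.5-fold, 196, 811 and 1184 genes were higher and 1189, 3206 and 1241 lower in AS, RC4 and RC8, and 0, 10 and 14 pathway genes were higher and 8, 10 and 3 lower. At 20 percentage points, 107, 392 and 266 genes changed a PAS share. With the NT fractions of another table, the proximal PAS of Vcp changed by 6.4 points in AS and 3.6 in RC4 (NT of the RC8 table), and by 6 and 6.1 in RC8 (NT of the AS and RC4 tables). Within the 3′-most exon, the distal PAS of Ufd1 changed by 0.57 points in RC4. Scaling to the study's library read numbers, taking either read column alone (apart from that limit), or summing Ubb with Gm1821 and Vcp with Vcp-rs (chosen after seeing the data) moved none of these values beyond its counting interval or a count by over 1.5 times. Among 66 counts and medians of single lists, 14 moved under each of these scalings, 3 with at least 200 reads and 2 with genes of all 3 tables, as did 18 of 42 counts at 1.5-fold, and both scalings turned the medians of the p97 adaptors and of the activation list from below to above 0 in AS and RC4. The depth leaves Ufd1 and Zfand2a in NT with the fewest reads, 958 and 729, and thus the widest intervals.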
